A study of Mus musculus with 4 samples.

Results

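10 genes of the bone morphogenetic protein (BMP) pathway were followed: the receptors Bmpr1a, Bmpr1b and Bmpr2, the signal carriers Smad1, Smad4 and Smad5, and the target genes Id1, Id2, Id3 and Id4. They were picked by gene symbol as 10 of the 52636 rows of the deposited count table, and each symbol stood on 1 row. The samples were 4 RNA sequencing libraries of cells sorted for the red reporter Dcx-DsRed, which marks doublecortin-expressing neuroblasts and immature neurons, from the dentate gyrus of C57BL/6 mice aged 6 to 7 weeks. Libraries 1 and 2 came from wild type mice and a second pair, also numbered 1 and 2, from Fmr1-/y mice, which lack the RNA-binding protein FMRP, and all mice carried Dcx-DsRed. The labels do not say whether the 2 libraries of a genotype came from separate or pooled animals, so the spread that p-values measure here may be technical.

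BMP ligands bind a pair of type I receptors (such as BMPR1A or BMPR1B) together with a pair of type II receptors (such as BMPR2). The activated type I receptor phosphorylates SMAD1 and SMAD5, which join SMAD4, enter the nucleus and switch on the Id genes. Id proteins have a helix-loop-helix but no DNA-binding region, so they hold back bHLH factors that drive neurons to differentiate. In the adult hippocampus BMP signalling through BMPR1A and SMAD4 is known to keep neural stem cells quiescent.

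None of the 10 genes passed the test between genotypes. The 2 with the smallest p, Id4 and Bmpr1b, were lower in both knockout libraries than in both wild type libraries. Over all tested genes, 13.7% were separated in this direction and 25.6% in either direction. The SMADs varied least over the 4 libraries. The widest spread was between libraries of the same genotype: Id1 was almost absent from library 2 of each genotype, and Id3 was lower there too.

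Upstream sequence is shown for Id4 and Bmpr1b, the members whose genotype groups did not overlap. RefSeq's table (GRCm38.p6) held windows for 8 of the 10 members, 12 windows in all, with no entry for Id1 and Smad4. The sequences below are the 250 bases before a transcript start that hold no base of an exon in GENCODE M21. Capitals mark GGCGCC, a GC-rich motif that SMAD1 and SMAD5 can bind, or CAGAC in either orientation, which contains the short SMAD box. Both strands were searched, and each window shown holds a single match, so none overlap.
Id4, chr13:48260866-48261115, plus strand: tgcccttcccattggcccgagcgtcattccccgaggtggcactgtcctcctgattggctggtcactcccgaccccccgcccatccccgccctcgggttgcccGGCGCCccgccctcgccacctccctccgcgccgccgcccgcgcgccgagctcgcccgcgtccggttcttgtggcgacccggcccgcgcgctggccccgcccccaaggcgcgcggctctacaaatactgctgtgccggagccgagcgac
Bmpr1b, first window, chr3:141982265-141982514, minus strand: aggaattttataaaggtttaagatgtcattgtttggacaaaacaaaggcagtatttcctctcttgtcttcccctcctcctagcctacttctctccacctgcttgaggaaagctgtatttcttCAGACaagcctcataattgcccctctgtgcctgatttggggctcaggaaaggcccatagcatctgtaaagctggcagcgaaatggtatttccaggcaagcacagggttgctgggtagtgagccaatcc
Bmpr1b, second window, chr3:141931589-141931838, minus strand: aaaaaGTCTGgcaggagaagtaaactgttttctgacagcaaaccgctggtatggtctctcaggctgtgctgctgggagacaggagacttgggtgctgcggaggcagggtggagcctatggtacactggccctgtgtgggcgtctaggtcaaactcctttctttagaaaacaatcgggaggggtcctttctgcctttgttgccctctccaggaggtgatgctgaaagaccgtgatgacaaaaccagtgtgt
The Id4 window, with 75.6% G and C, held 1 GGCGCC that began 148 bases before the start. Each Bmpr1b window shown held 1 CAGAC in one orientation or the other. The Bmpr1b window not shown, with 103 bases in an exon, held neither motif. The Bmpr1b windows lie inside the annotated gene (chromosome 3, 141837136 to 142169425). GGCGCC stood in at least 1 window of 5 of the 8 members (Bmpr1a, Bmpr2, Smad5, Id2 and Id4) and was present in 9.59% of 32851 windows of all genes. CAGAC stood in windows of 3 of the 8 (Bmpr1b, Smad5 and Id3) and in 42.2% of all windows. The member counts are per gene, with up to 3 partly overlapping windows each, whereas the percentages are per window. The windows of all genes were not matched for G and C or for exon content. The member counts and the percentages are therefore unlike measures, and enrichment was not tested. A match is a run of letters and was not tested as a binding site.

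The libraries held 5478224 to 7213759 counts, and 14673 genes had enough counts to be tested. Levels are given as CPM, the count relative to the size of the library, scaled by the TMM method, in which 1 count is worth 0.144 to 0.171 CPM. Fmr1, the targeted gene, stood at 73.1 (library 1) and 91.6 CPM (library 2) in wild type, and at 43.4 and 29.7 CPM in the knockout, the direction of the labels, with a log2 fold change of -1.17, SE 0.36 (unadjusted p 0.0134, adjusted p 0.9999, edgeR's quasi-likelihood test). Dcx gave 330 and 166 CPM for wild type 1 and 2, 456 and 211 CPM for knockout 1 and 2, so the sorted gene was present in each. The libraries also held transcripts that do not define Dcx cells. Summed over 10 markers of radial glia and astrocytes, for example, they reached 8276 to 12784 CPM, against 1682 to 3656 CPM for 10 markers of neuroblasts and immature neurons. These sums are not scaled by gene length, and Slc1a2 alone gave 4771 to 5853 CPM of the first. They therefore do not measure the shares of the cell types. In such bulk samples fewer cells of a type and less RNA per cell cannot be told apart.

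To compare genes with each other, CPM were divided by the deposited gene length in kilobases. On this scale Id4 had the highest level of the 10, with a mean of 57.1 and a range of 36.1 to 79.0 CPM per kilobase over the 4 libraries. Id3 followed at 29.1 (18.6 to 41.1) and Id2 at 24.2 (20.2 to 31.5). Id4 was above Id2 and Id3 in each library, although its range overlapped that of Id3, and Id2 and Id3 changed order between libraries.

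The SMADs and receptors had lower means than these Id genes on the same scale, although the ranges of Smad4 and Smad5 overlapped those of Id2 and Id3. Smad4, the partner shared with the TGF-beta branch, had a mean of 20.4 CPM per kilobase (18.6 to 22.5) and Smad5 19.6 (17.4 to 21.8), levels that did not differ beyond their spread. Bmpr2 at 13.2 (11.0 to 16.0) and Bmpr1a at 12.4 (8.92 to 15.3) also overlapped each other, and both lay below Smad5 in each library. Smad1 at 7.42 (6.86 to 8.26) lay below Bmpr1a. The lowest means were those of Bmpr1b at 5.48 (2.61 to 7.22) and Id1 at 5.25 (0.140 to 11.3), with ranges that overlapped each other and that of Smad1. Id1 had the widest range relative to its mean and lay above Smad1 and Bmpr1b in both libraries numbered 1.

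**Figure D1:**
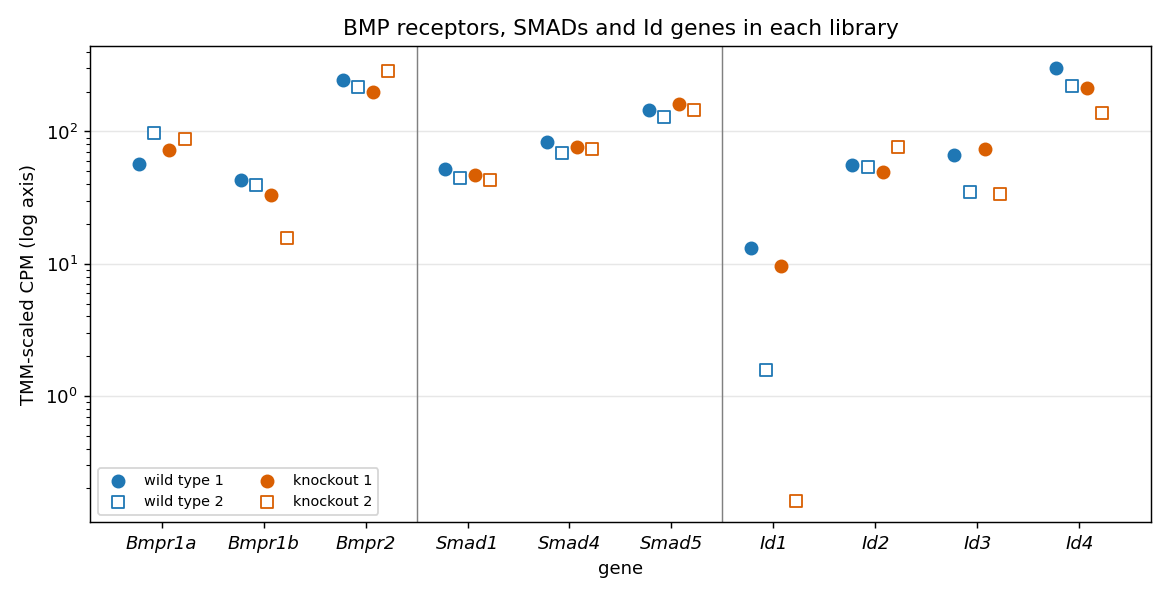
TMM-scaled CPM (log axis) of the 10 genes in each of the 4 libraries, with circles for library 1, squares for library 2, blue for wild type and orange for knockout. Id1 drops from 13.1 and 9.57 CPM in the libraries numbered 1 to 1.58 and 0.162 CPM in those numbered 2, while Smad1, Smad4 and Smad5 form tight groups.

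Between genotypes, 0 of the 10 members passed the adjusted p threshold of 0.05 in edgeR's quasi-likelihood test, which was fitted over all genes and called 0% of those tested. At an unadjusted p under 0.05 the count was 0 of 10, against 1.05% of tested genes, and DESeq2 and limma voom also gave 0 calls and 0 unadjusted p under 0.05 among the members. All 10 passed the filter on low counts. Estimates were above 0 for 5 members and below 0 for 5, as they were for 51.6% and 48.4% of tested genes, with a median log2 fold change (knockout minus wild type) of 0.02, equal to the median of 0.02 over all tested genes. The knockout pair lay wholly below the wild type pair for 2 members, as for 13.7% of tested genes, and wholly above it for 0, as for 11.8%.

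Among the receptors, Bmpr1b, a type I receptor (chromosome 3, 141837136 to 142169425, GRCm38), measured 43.1 and 39.2 CPM in the wild type libraries, against 33.0 and 15.6 CPM in the knockout ones. The groups did not overlap, and knockout library 2 lay farthest from the rest. The genotype means were 41.1 ± 2.75 and 24.3 ± 12.3 CPM (SD, n = 2 each), with a log2 fold change of -0.76 and SE 0.48 (unadjusted p 0.159, adjusted p 0.9999, edgeR). Without knockout library 2 its estimate was -0.33 and without knockout library 1 it was -1.40.

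Bmpr1a, the type I receptor linked to stem cell quiescence (chromosome 14, 34410734 to 34503341), stood at 56.6 (library 1) and 96.9 CPM (library 2) in wild type, and at 72.6 and 88.1 CPM in the knockout. Both knockout values lay between the wild type values, and the log2 fold change of 0.07 was below its SE of 0.36. Bmpr2, the type II receptor (chromosome 1, 59763400 to 59879014), gave 245 and 217 CPM for wild type 1 and 2, 198 and 288 CPM for knockout 1 and 2. Here the knockout values stood on either side of the wild type pair, and the log2 fold change was 0.07 with SE 0.30.

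The SMADs varied least. Smad5 (chromosome 13, 56703010 to 56742377), one of the receptor-activated SMADs, measured 146 and 129 CPM in the wild type libraries, against 162 and 145 CPM in the knockout ones, a log2 fold change of 0.16 with SE 0.27. Smad1 (chromosome 8, 79338395 to 79399518), its close relative, stood at 51.7 (library 1) and 44.4 CPM (library 2) in wild type, and at 46.8 and 42.9 CPM in the knockout, a log2 fold change of -0.10 with SE 0.34. Smad4 (chromosome 18, 73639009 to 73703780) gave 83.6 and 69.0 CPM for wild type 1 and 2, 76.9 and 73.2 CPM for knockout 1 and 2, a log2 fold change of -0.02 with SE 0.30. In each of the 3 genes the genotypes overlapped. The summed level of the 3 SMADs ran from 242 to 282 CPM in wild type and from 262 to 285 CPM in knockout libraries.

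Among the target genes, Id4 (chromosome 13, 48261228 to 48266026) measured 304 and 222 CPM in the wild type libraries, against 214 and 139 CPM in the knockout ones. Both knockout values lay below both wild type values, but knockout library 1 was close to wild type library 2. The means were 263 ± 58.0 and 177 ± 53.3 CPM (SD, n = 2 each), with a log2 fold change of -0.57 and SE 0.33 (unadjusted p 0.127, adjusted p 0.9999, edgeR), the smallest p of the 10. The log2 ratio of knockout to wild type was -0.51 between the libraries numbered 1 and -0.68 between those numbered 2. Without knockout library 2 the estimate was -0.31 and without knockout library 1 it was -0.92. Antisense to Id4, the gene A330033J07Rik had at most 7 counts in a library, against 857 or more for Id4.

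Id2 (chromosome 12, 25093799 to 25097140) stood at 56.1 (library 1) and 54.0 CPM (library 2) in wild type, and at 49.4 and 76.8 CPM in the knockout, and Id3 (chromosome 4, 136143497 to 136145755) gave 66.1 and 35.1 CPM for wild type 1 and 2, 73.6 and 33.4 CPM for knockout 1 and 2. The genotypes overlapped in both genes, and the log2 fold changes of 0.20 (SE 0.35) for Id2 and 0.08 (SE 0.50) for Id3 were below their errors. Id1 (chromosome 2, 152736251 to 152737410) was counted 77 and 11 times in wild type and 56 and 1 times in knockout libraries. In CPM these counts are 13.1 and 1.58 against 9.57 and 0.162, with the libraries numbered 2 far below the others. The log2 fold change of -0.59 had an SE of 1.65, so a genotype difference in Id1 of several fold in either direction was not detectable here.

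**Figure D2:**
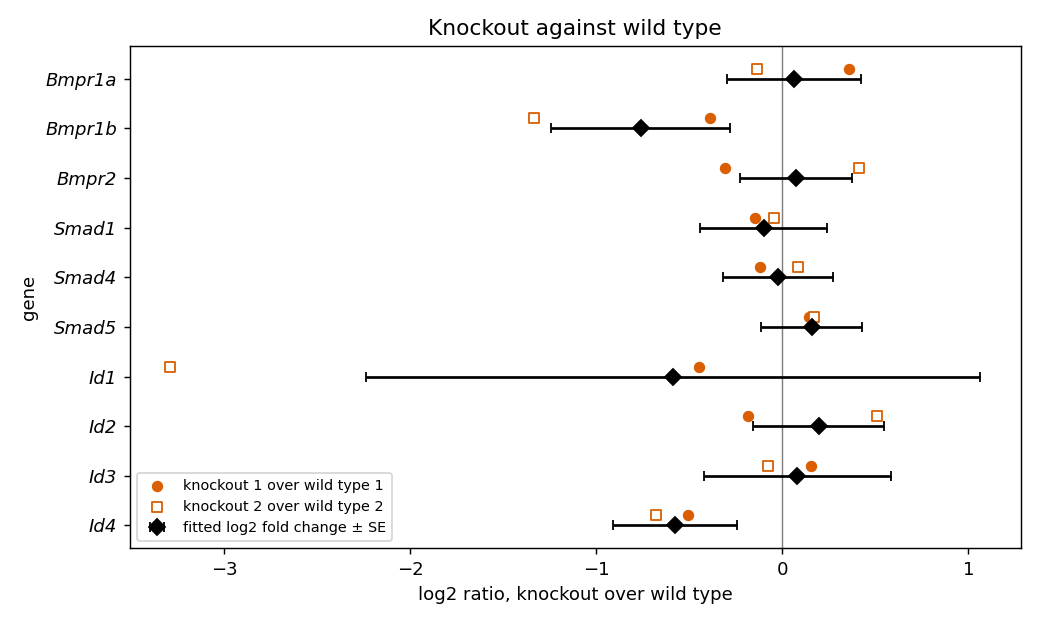
Log2 ratio of knockout over wild type for each gene: black diamonds are the fitted log2 fold changes with bars of 1 SE, circles the ratio of the libraries numbered 1 and squares that of the libraries numbered 2. Id4 has both symbols close together at -0.51 and -0.68, Bmpr1b has both below 0, and Id1 has a bar of 1.65 to each side.

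Marker lists went both ways between genotypes. Most estimates were above 0 for neuroblast and immature neuron (8 of 10, median 0.11), cell cycle (5 of 7, median 0.23) and interneuron markers (3 of 3 tested, median 1.80). The same held for oligodendrocyte precursor (6 of 6, median 0.31) and oligodendrocyte markers (5 of 6, median 0.21), with 0 called in each of these lists. Most were below 0, the direction of Id4 and Bmpr1b, for mature granule neuron markers (3 of 5, median -0.49, 0 called) and for 3 further lists. Of 10 radial glia and astrocyte markers, 8 had estimates below 0 in the knockout, with a median log2 fold change of -0.28 and 0 called. Their summed level was 10260 to 12747 CPM in wild type and 8276 to 12784 CPM in knockout libraries, and none was at 0. Aqp4 and Aldh1l1 were lower in both knockout libraries than in both wild type libraries, as were 13.7% of all tested genes. The remaining 8 markers were not separated. Of 8 endothelial and mural cell markers, 6 had estimates below 0 (median -0.81, 0 called), with summed levels of 115 and 175 CPM for wild type against 107 and 74.5 CPM for knockout. Rgs5, a pericyte gene, was the only one with an unadjusted p under 0.05 (log2 fold change -1.39, SE 0.56, unadjusted p 0.0409, adjusted p 0.9999, edgeR). Rgs5 and Cldn5 lay lower in both knockout libraries than in both wild type libraries. Kdr (log2 fold change 1.99, SE 1.02) and Pecam1 (2.41, SE 1.88) lay higher in both, as did 11.8% of all tested genes. Of 5 tested microglial markers, 4 had estimates below 0 (median -0.92, 0 called), with sums of 16.4 and 50.1 CPM against 16.4 and 29.2 CPM. The part of these cells in the Id4 and Bmpr1b values was not tested.

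Libraries of the same genotype were compared next. A ratio of library 1 to library 2 was computed from TMM-scaled counts with an exact 95% interval, which covers counting error only and not variation between samples. PCR copies of a molecule were not marked as such, so the interval may be too narrow even for counting error. The interval excluded a ratio of 1 for 7 of the 10 members in wild type and for 8 of 10 in knockout, shares near the 64.9% and 72.5% of all tested genes. As further background, the median tested gene differed by 1.42-fold between the wild type libraries and by 1.60-fold between the knockout libraries, in either direction. With 1 library on each side no test across samples was possible.

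Id1 gave the widest gap between libraries. Wild type library 1 had 8.24 times the level of wild type library 2 (95% interval 4.36 to 17.2), and knockout library 1 had 59.0 times the level of knockout library 2 (10.2 to 2373), the latter resting on 1 count. A ratio of 4-fold or more in this direction in both genotypes, a size chosen after the values were seen, was found for 1.59% of tested genes, and Id1 was the only member among them. Id3 was also higher in library 1, by 1.88-fold in wild type (1.60 to 2.22) and 2.21-fold in knockout (1.86 to 2.62). Id4 was higher by 1.37-fold (1.28 to 1.47) and 1.54-fold (1.41 to 1.68).

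Id2 did not follow the other Id genes. Its ratio was 1.04 (0.894 to 1.21) in wild type and 0.643 (0.553 to 0.746) in knockout, so it was highest in knockout library 2, where Id1, Id3 and Id4 were lowest. The mix of Id transcripts differed accordingly: per kilobase, Id2 made up 15.3% and 22.0% of the summed Id level in wild type libraries 1 and 2, and 16.2% and 36.5% in knockout libraries 1 and 2. Id1 made up 7.49%, 1.35%, 6.58% and 0.162% in the same order. Id4 remained the largest share in each library, at 41.8% to 57.2%.

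Among the receptors the libraries went opposite ways. Bmpr1a was lower in library 1 than in library 2, with ratios of 0.584 (0.511 to 0.667) in wild type and 0.824 (0.724 to 0.937) in knockout. Bmpr1b had a ratio of 1.10 (0.923 to 1.31) in wild type and 2.12 (1.65 to 2.74) in knockout, and Bmpr2 had 1.13 (1.05 to 1.21) and 0.685 (0.636 to 0.738). The 6 ratios of the SMADs ran from 1.05 for Smad4 in knockout to 1.21 for Smad4 in wild type.

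**Figure D3:**
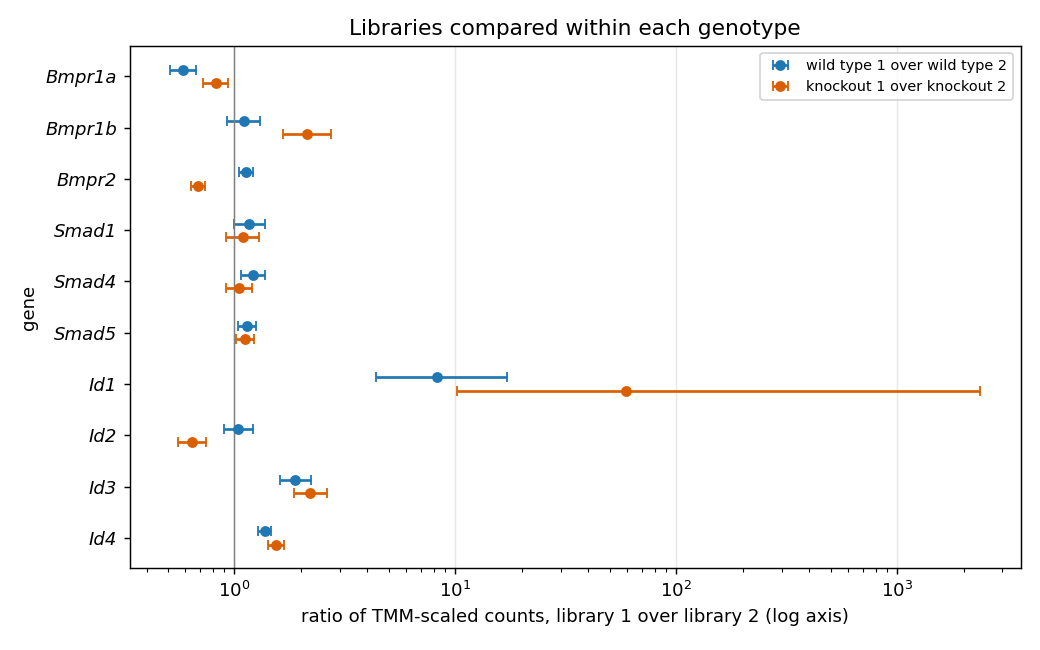
Ratio of TMM-scaled counts of library 1 over library 2 (log axis) for each gene in wild type (blue) and knockout (orange), with exact 95% intervals for counting error. Id1 stands far to the right at 8.24 and 59.0, Id3 and Id4 lie above 1 in both genotypes, and Bmpr1a lies below 1 in both.

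Both libraries numbered 1 lay above both numbered 2 for 5 members (Smad1, Smad4, Smad5, Id1 and Id3), as for 25.9% of tested genes, and below them for Bmpr1a alone, as for 26% of tested genes. Such separation was common: it held for 51.9% of tested genes and 6 of the 10 members. Cell type markers moved with it. All 10 neuroblast and immature neuron markers and 8 of 10 radial glia and astrocyte markers were higher in both libraries numbered 1, with summed levels of 3177 and 3656 against 1682 and 1821 CPM for the first list and 12747 and 12784 against 10260 and 8276 CPM for the second. All 6 markers of oligodendrocyte precursors and all 6 of oligodendrocytes were lower there, at 453 and 732 against 3467 and 4298 CPM and at 1819 and 3801 against 10416 and 9508 CPM. No marker of these 4 lists was at 0 in a library. The part of these cells in the Id1, Id3 and Bmpr1a values was not tested.

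For the remaining marker lists the split by library number was as follows. Of 5 tested microglial markers 2 were lower in both libraries numbered 1, the summed level was 16.4 to 50.1 CPM, and Aif1 and Tmem119 were at 0 in at least 1 library. Of 8 endothelial and mural cell markers 1 was higher and 1 lower, the sum was 74.5 to 175 CPM, and Cldn5 and Pecam1 were at 0 in 1 library each. Of 7 cell cycle genes 4 were higher and 2 lower in the libraries numbered 1, with sums of 254 and 370 against 196 and 148 CPM. Of 5 mature granule neuron markers 3 were lower in the libraries numbered 1, with sums of 882 and 907 against 2037 and 3117 CPM. Of 3 tested interneuron markers 2 were lower there, the summed level was 63.9 to 136 CPM, and Sst, Pvalb and Vip were at 0 in wild type library 1. Of 4 haemoglobin genes none was tested, and 113 of their 114 counts came from wild type library 2.

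**Figure D4:**
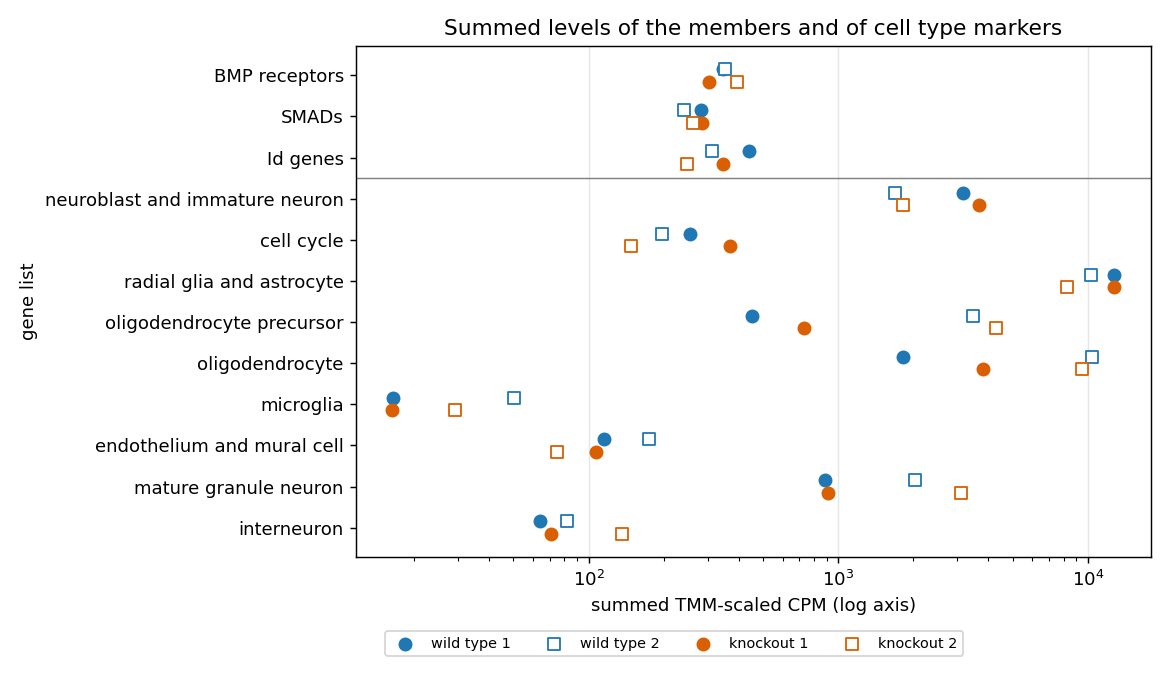
Summed TMM-scaled CPM (log axis) of the 3 groups of members, above the line, and of cell type marker lists, below it, in each library, with circles for library 1, squares for library 2, blue for wild type and orange for knockout. The summed Id level is 439 and 347 CPM in the libraries numbered 1 and 313 and 249 CPM in those numbered 2, and the markers of oligodendrocyte precursors show the opposite order with a wider gap.

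Likeness of pattern was measured as the root mean square distance between log2 CPM values centred on their mean over the 4 libraries. Among the members, Smad1 and Smad4 were closest at 0.05, Bmpr2 and Id2 followed at 0.08, and Id4 was nearest to Bmpr1b at 0.24. Outside the members, 7990 genes with a mean of at least 20 CPM were compared. Nearest to Id1 was Gadd45g, a stress-induced gene of the Gadd45 family, at a distance of 0.29 and with levels of 97.3 (wild type 1), 17.0 (wild type 2), 109 (knockout 1) and 3.24 CPM (knockout 2). It was followed by Thbs4 at 0.93 and Triobp at 0.98. The nearest to Id3 were Nfib, Traf7 and Eps8l1 (0.02 to 0.04), those to Id2 were Ccdc85a, Ppa1 and Zer1 (0.02 to 0.04), and those to Id4 were Zfp384, Phrf1 and B4galt3 (0.03 to 0.04). With 4 values per gene and this many candidates, close matches are a description of these libraries.

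The rest of the pathway was read from 9 lists with 80 distinct genes in the table, of which 60 were tested. None was called, and 0 had an unadjusted p under 0.05 in edgeR's test. Estimates were above 0 for 34 and below 0 for 26, with a median log2 fold change of 0.05. Both knockout libraries were above both wild type libraries for 9 and below them for 8, shares to be read against the 11.8% and 13.7% of all tested genes.

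Of 15 BMP ligand genes, 6 were tested, 4 with estimates above 0, and Bmp10, Gdf2, Gdf6 and Gdf7 had no count in any library. Bmp7, one of the 2 most abundant, had 78 and 182 counts in wild type and 66 and 280 in knockout libraries, so library 2 was the higher one in each genotype. Bmp4, the other, had 24 and 153 counts in wild type and 142 and 195 in knockout libraries (log2 fold change 1.09, SE 0.78). In CPM these were 4.07 and 22.0 against 24.3 and 31.6. Both knockout libraries thus lay above both wild type libraries, as for 11.8% of tested genes.

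Of 4 further BMP receptor genes, 2 had estimates above 0. Acvr2a, a type II receptor, had 81.5 ± 11.1 and 91.7 ± 5.54 CPM in the 2 genotypes, wild type first, and Acvr1, a type I receptor, had 51.4 ± 1.18 and 34.1 ± 1.08 CPM (SD, n = 2 each). For Acvr1 the groups did not overlap, with a log2 fold change of -0.59 and SE 0.35 (unadjusted p 0.132, adjusted p 0.9999, edgeR). Separation with the knockout lower held for 13.7% of tested genes. Among the 60 tested pathway genes it held for 8, Acvr1 included, and separation with the knockout higher held for 9. Of 4 tested activin and TGF-beta receptors, 3 had estimates above 0, and the most abundant were Acvr1b at 89.8 ± 11.5 and 110 ± 43.6 CPM and Tgfbr1 at 76.97 ± 7.43 and 72.6 ± 12.4 CPM (SD, n = 2 each). Of 5 tested co-receptors, 3 had estimates above 0. Neogenin (Neo1), which binds repulsive guidance molecules, had 397 ± 80.1 and 411 ± 87.2 CPM, and Rgma, one of those molecules, had 81.6 ± 1.90 and 62.7 ± 24.7 CPM (SD, n = 2 each).

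Extracellular antagonists, which trap BMP ligands or modulate their binding, had 4 of 11 estimates above 0. Crim1 had 65.8 ± 30.0 and 74.0 ± 41.3 CPM and Twsg1 had 55.7 ± 4.88 and 71.4 ± 47.1 CPM in wild type and knockout libraries (SD, n = 2 each). Other SMADs had 4 of 5 above 0. Smad3, of the TGF-beta branch, had 94.0 ± 5.69 and 117 ± 63.1 CPM, and Smad7, the inhibitory SMAD that BMP and TGF-beta signals induce, had 91 and 458 counts in wild type and 128 and 555 in knockout libraries. Smad7 thus lay higher in library 2 of each genotype, as did 26% of tested genes, the reverse of Id1 and Id3. Of the 7 tested target genes other than the Id genes, 3 including Smad7 were lower in both libraries numbered 1. Another 2 were higher there: Atoh8 (34 and 11 counts in wild type, 37 and 7 in knockout) and Smad6 (13 and 1, 16 and 0). Over all tested genes, 26% were lower and 25.9% higher in both libraries numbered 1. Smad6 had at most 16 counts in a library.

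Intracellular brakes on the pathway had 5 of 11 estimates above 0. The ubiquitin ligase Nedd4l had 284 ± 56.5 and 248 ± 28.7 CPM, and Fkbp1a, the immunophilin that restrains type I receptors, had 175 ± 18.0 and 192 ± 107 CPM (SD, n = 2 each). Target genes other than the Id genes had 5 of 7 above 0, with Smad7 the most abundant and Hey1, a bHLH repressor, at 26.8 ± 13.2 and 33.9 ± 2.73 CPM (SD, n = 2 each). Of 10 bHLH factors that Id proteins bind or oppose, 6 had estimates above 0. Tcf4, an E protein and direct Id partner, had 1130 ± 299 and 1140 ± 255 CPM. Olig1, a factor of the oligodendrocyte lineage, measured 49.0 and 343 CPM in the wild type libraries, against 86.3 and 398 CPM in the knockout ones.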

How the data were processed

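Raw counts for each gene were deposited in 1 table, whose columns hold the 4 libraries, the gene length in bases and 0 other per-sample values. The submitters' processing notes name STAR 2.5.3a and GRCm38. Reads came from strand-specific, poly(A)-selected libraries of 10000 sorted cells, per the labels' protocols. The protocol covers sorts of all living cells and of Dcx-DsRed positive cells, and the series design names the latter. Neither the counter, its use of strand nor the annotation release is stated in the sources at hand, which leaves antisense or overlapping genes uncertain. Positions are those of GENCODE M21 (GRCm38), and upstream sequences from RefSeq.

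Counts were filtered with filterByExpr, scaled by TMM and tested with edgeR 4.0.16 (R 4.3.3; estimateDisp, glmQLFit with robust estimation, two-sided quasi-likelihood F-test, genotype as the only term), with Benjamini-Hochberg adjustment over 14673 genes. SE is the size of the log2 fold change over the square root of F. An exact permutation test of 2 against 2 libraries cannot go below 0.333. Replicates differed by more than counting noise (chi-square per degree of freedom 38.2 in wild type, 54.2 in knockout). Likeness and fold sizes over all genes used log2(CPM + 0.1). Alternatives were other scalings, no filter, DESeq2 1.42.0, limma 3.58.1 voom, non-robust estimation, a replicate block, leaving out each library, and leaving out mitochondrial and rRNA-like genes. The members, lists and tests were chosen with earlier results of these data known. Named are all members, Fmr1 and Dcx, the 2 most abundant genes of each pathway list, and for each Id gene the 3 genes nearest in pattern. Bmp10, Gdf2, Gdf6, Gdf7, A330033J07Rik, Aqp4, Aldh1l1, Rgs5, Kdr, Atoh8, Smad6 and the marker genes at 0 were named after their values were seen. The separations of Acvr1, Bmp4, Cldn5 and Pecam1 were also picked out after their values were seen.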

Additional observations from a re-analysis of the deposited data

How the results depend on the processing

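No member was called under any of the 13 alternatives. Of 130 member estimates under them, 118 kept their sign. The sign turned in the remaining 12. For Bmpr2 scaled by library size alone the log2 fold change was -0.00804, and the other 11 came from leaving out 1 library. With each library left out in turn the estimates ran from -0.28 to 0.49 for Bmpr1a, from -0.24 to 0.32 for Bmpr2, from -0.22 to 0.011 for Smad1, from -0.17 to 0.12 for Smad4, from -5.33 to 1.60 for Id1, from -0.17 to 0.48 for Id2 and from -0.60 to 0.60 for Id3. Bmpr1b (-1.40 to -0.33), Id4 (-0.92 to -0.31) and Smad5 (0.05 to 0.25) kept their sign. Over all genes, 0 were called in each of these fits. Without knockout library 1 the unadjusted p was 0.0227 for Bmpr1b, 0.0214 for Id1 and 0.0463 for Id4, with adjusted p of 0.757 to 0.759 (edgeR), in a fit in which 6.57% of tested genes had an unadjusted p under 0.05. In such a fit the lone library is assumed to vary like the others.

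The labels give both genotypes the numbers 1 and 2 without saying that a number marks a shared litter or day, and the deviations of same-numbered libraries from their group means correlated at 0.38 across genes, which are not independent replicates. With the number as a block, 10 genes were called over the whole table and 0 of the members. In that fit Id4 had a log2 fold change of -0.59 (unadjusted p 0.00254, adjusted p 0.434) and Bmpr1b one of -0.85 (unadjusted p 0.0303, adjusted p 0.880, edgeR), and 5.3% of tested genes had an unadjusted p under 0.05. Over all alternatives the adjusted p was 0.434 or more for Id4 and 0.757 or more for Bmpr1b. Scaled by library size alone, all 20 ratios between libraries rose by a factor of 1.12, which exceeded the counting interval for 3 genes, with 1.26 and 0.770 for Bmpr2, 1.27 and 1.25 for Smad5, and 1.53 and 1.73 for Id4, in wild type and knockout. At 1 to 77 counts, depth limits what can be read from Id1.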
